A study of Mus musculus with 3 samples.

Results

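Metalloproteinases of the MMP, ADAM and ADAMTS families and their tissue inhibitors were followed in mouse dendritic cells (DCs), antigen-presenting cells grown here in 5-day bone marrow cultures with GM-CSF, the granulocyte-macrophage colony-stimulating factor that turns marrow precursors into DCs. This set of genes, like the lists used below, was chosen with earlier results of these data known. Its members were taken by symbol: those named Mmp, Adam, Adamts, Adamtsl or Timp with a number in the annotation of the array. Each gene was read by its probe set of highest mean signal. There were 70 such genes among 17886, namely 18 MMPs, 28 ADAMs, 15 ADAMTS proteases, 5 ADAMTS-like proteins and 4 TIMPs. Of these, 33 lay above a floor on 1 array or more and 28 on each of the 3, the floor being the array-wide median after normalization, a log2 signal of 5.58.

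Cells from wild-type (WT) mice were sorted by their surface PDL2, which Pdcd1lg2 encodes and which binds the inhibitory receptor PD-1. The groups were PDL2-positive DCs left untreated, PDL2-negative DCs given lipopolysaccharide (LPS, a bacterial cell wall component sensed by Toll-like receptor 4) at 100 ng/ml, and PDL2-negative DCs left untreated. All of them had been cultured with the same growth factor. The time under LPS, the age and sex of the mice, and whether mice were pooled are not given in the sources used here. With 1 array for each group, differences have no replicate check and no test was possible. A gene is called higher or lower by size alone, at 2-fold or more. The number of arrays limits the precision.

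MMPs are zinc-dependent proteases that are secreted or held at the cell surface and cut collagens, elastin and other matrix proteins; they are made as inactive precursors whose prodomain must be removed. ADAMs are membrane-anchored relatives that shed the outer parts of cytokines and receptors, and ADAMTS proteases are secreted and act on proteoglycans and other matrix proteins. TIMPs bind the active site and inhibit. In DCs and macrophages these proteins are known for tissue passage and for release of membrane-bound cytokines such as TNF.

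Pdcd1lg2 followed the sort, with a log2 signal of 11.73 in PDL2-positive cells, 9.44 in LPS-treated and 8.40 in untreated PDL2-negative cells. All 8 DC markers were above the floor on every array. Of them 5, among them Flt3 and Zbtb46, were higher in PDL2-positive than in untreated PDL2-negative cells. The DC marker Itgax was lower, with 9.81 in PDL2-positive against 11.48 in untreated PDL2-negative cells. All 9 macrophage markers were lower there, with log2 signals of 5.51 to 10.72 in PDL2-positive cells, 9.43 to 13.58 after LPS and 9.31 to 14.08 in untreated PDL2-negative cells. The 3 monocyte markers measured were lower as well, and so were the 4 osteoclast markers above the floor, among them Acp5 and Ctsk. None of 10 neutrophil and precursor markers differed by 2-fold between the untreated populations, and their signals ran from 5.72 to 12.83 in PDL2-positive and from 5.69 to 12.89 in PDL2-negative cells. After LPS, 6 of these 10 were lower and 1, Lcn2, was higher. Mast cell and basophil markers had 1 of 5 higher, Kit in PDL2-positive cells and Hdc after LPS, and a count of 1 shows no trend. Of all genes 10.1% were higher and 13% lower in PDL2-positive than in untreated PDL2-negative cells. After LPS 9.17% were higher and 13.8% lower. Of the fibroblast and stroma markers Col1a1, Col3a1, Lum, Pdgfra and Postn were below the floor on all arrays, as were Pecam1, Tek and Emcn of the endothelium and Cd79a, Ms4a1, Cd3g and Ncr1 of lymphocytes. Of the endothelial list Kdr had 5.42 in PDL2-positive cells, 10.19 after LPS and 7.11 in untreated PDL2-negative cells, while Col1a2 and Dcn of the stroma list and Cd3e stayed within 2-fold. Pdgfrb, Cxcl12 and Lepr of the stroma list and the endothelial Cdh5 were above the floor after LPS alone. Pdgfrb had 5.03 in PDL2-positive cells, 6.44 after LPS and 5.33 in untreated PDL2-negative cells, and the highest signals of Cxcl12, Lepr and Cdh5 were 5.62, 5.58 and 5.59. The part of such differences in cell makeup in the results below was not tested. In these bulk samples fewer cells of a type and less RNA per cell cannot be told apart.

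**Figure D1:**
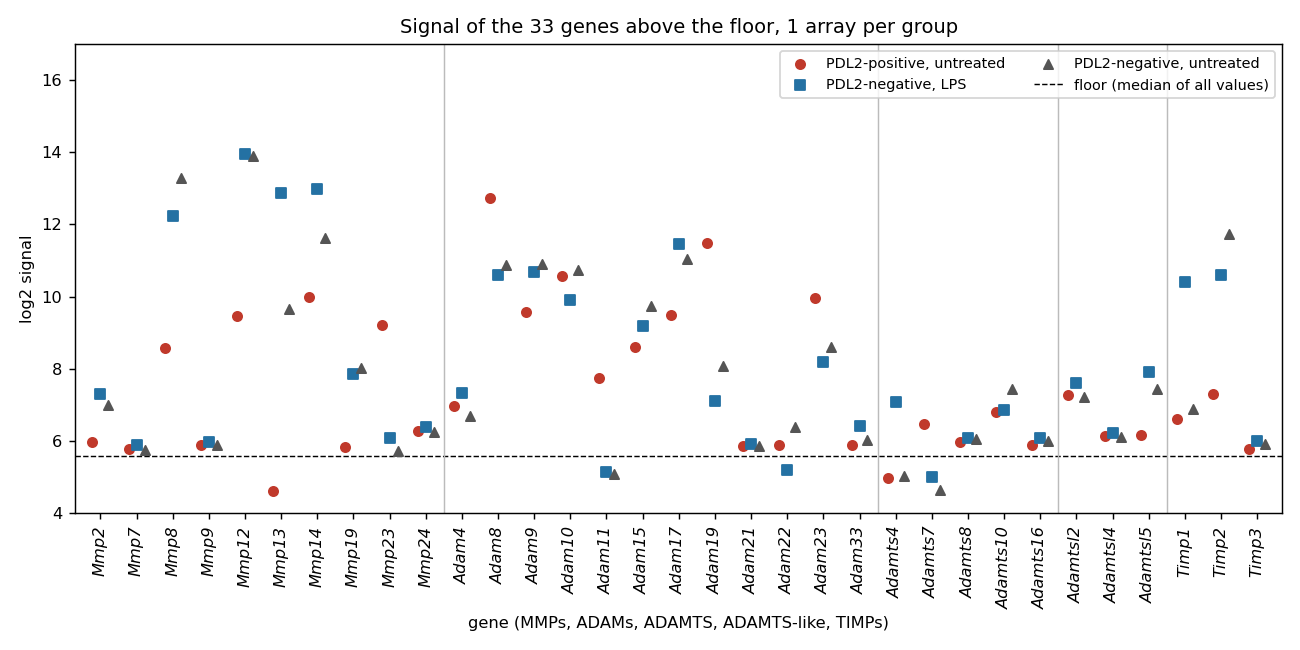
Log2 signal (vertical axis) of the 33 genes above the floor, with 1 point per array: circles for PDL2-positive untreated, squares for LPS-treated and triangles for untreated PDL2-negative cells. The dashed line is the floor at 5.58. Mmp8, Mmp12, Mmp13 and Timp2 have their lowest point in PDL2-positive cells and Adam8, Adam19 and Mmp23 their highest.

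Across the set, untreated PDL2-positive cells had more genes on the lower side than untreated PDL2-negative cells. Of the 32 genes above the floor on at least 1 of these arrays, 5 were higher and 11 lower, where 10.1% of all 10926 genes compared were higher and 13% lower. The genes on the lower side were 6 MMPs, 3 ADAMs, Adamtsl5 and Timp2, and those on the higher side were 4 ADAMs and Mmp23. The median log2 difference was -0.14 for the set and 0.01 for all genes. LPS moved fewer of them: 4 of 31 were higher and 2 lower, beside 9.17% higher and 13.8% lower among 11000 genes, with medians of 0.09 and 0.02. In PDL2-positive untreated against LPS-treated cells, which differ in both population and treatment so that these cannot be told apart, 5 of 33 were higher and 12 lower, beside 15.6% and 12.6% of 11042 genes, with medians of -0.23 and -0.05. A gene that is above the floor on 1 array only must differ between arrays, so these counts describe the genes measured and not the 70. Each array serves in 2 of the 3 comparisons.

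**Figure D2:**
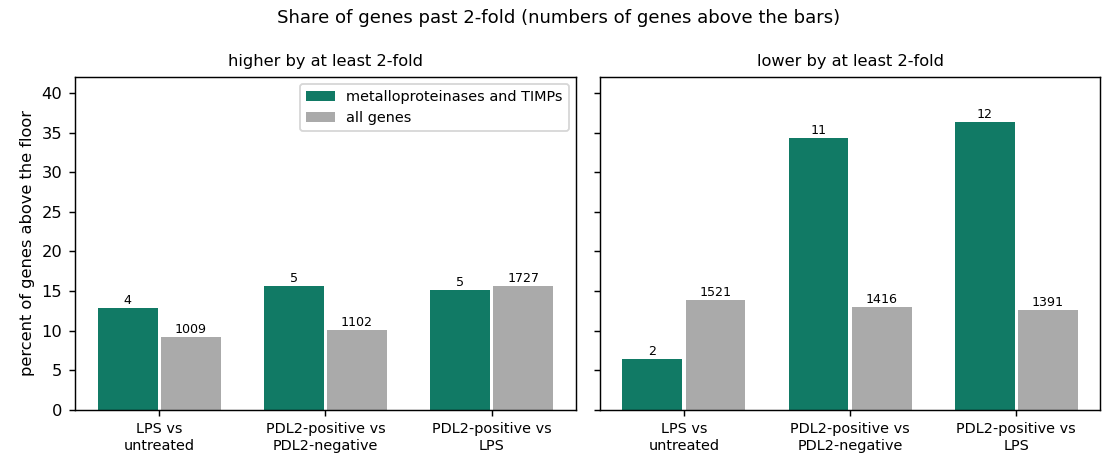
Percent of genes above the floor (vertical axis) that were higher, left, or lower, right, by at least 2-fold in each comparison, for the metalloproteinases and TIMPs and for all genes; the numbers of genes stand above the bars. In PDL2-positive against untreated PDL2-negative cells 11 of 32 were lower, beside 1416 of 10926 genes.

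The collagenases and the macrophage elastase had the largest differences among the MMPs in PDL2-positive against untreated PDL2-negative cells, all on the lower side. Mmp13, which encodes the interstitial collagenase that cuts fibrillar collagen in mice, had a log2 signal of 4.61 in PDL2-positive cells, 12.88 in LPS-treated and 9.65 in untreated PDL2-negative cells. The PDL2-positive array was below the floor and the LPS array the highest. Mmp13 was 9.43-fold higher after LPS, at least 16.8-fold lower in PDL2-positive than in untreated PDL2-negative cells, and at least 158-fold lower in PDL2-positive than in LPS-treated cells. Mmp8 encodes the collagenase stored in neutrophil granules. Its signal was 8.56 in PDL2-positive cells, 12.24 in LPS-treated and 13.30 in untreated PDL2-negative cells. It was 26.6-fold lower in PDL2-positive than in untreated PDL2-negative cells and 2.08-fold lower after LPS. In the first of these comparisons no neutrophil marker differed by 2-fold. In the second 6 of 10 were lower, 1 was higher and 3 were within 2-fold, beside 13.8% of all genes lower. Among them Mpo had 6.42 and Ngp 9.83 after LPS against 8.14 and 11.31 without it. Lcn2 went the other way, with 12.49 after LPS against 8.77. Whether neutrophil content bears on the Mmp8 signal was not tested. Mmp12, the macrophage elastase gene, had signals of 9.47 in PDL2-positive, 13.95 in LPS-treated and 13.91 in untreated PDL2-negative cells. PDL2-positive cells stood apart, 21.7-fold lower than untreated PDL2-negative cells, while the LPS and untreated arrays differed by 0.04. Saturation of so bright a probe set was not tested.

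These 3 genes lie close together. In the RefSeq annotation of GRCm38.p6, 9 of the genes followed lie in a single cluster on chromosome 9, in the order Mmp13, Mmp12, Mmp1b, Mmp3, Mmp1a, Mmp10, Mmp8, Mmp20 and Mmp7. Mmp13, Mmp12, Mmp8 and Mmp7 were above the floor, and Mmp7, the matrilysin gene, held 5.79, 5.90 and 5.74 in PDL2-positive, LPS-treated and untreated PDL2-negative cells. The other 5, which include the stromelysin genes Mmp3 and Mmp10, were below the floor on every array.

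Of the genes higher in PDL2-positive cells, Mmp23, Adam8 and Adam23 also have promoter windows, but none held a match to the motifs below. The promoters shown are those of the 3 cluster genes that differed, which were lower together in PDL2-positive cells. That of Adam19 is shown as well, the higher gene with matches. Each is the 250 bases before a RefSeq start (GRCm38.p6, + strand), in lower case, with matches to 3 motifs in capitals: AP-1 (TGANTCA), the site of Fos and Jun dimers; the TATA box (TATAAA); and the NF-kB consensus, all searched on both strands.
Mmp13 chr9:7272264-7272513: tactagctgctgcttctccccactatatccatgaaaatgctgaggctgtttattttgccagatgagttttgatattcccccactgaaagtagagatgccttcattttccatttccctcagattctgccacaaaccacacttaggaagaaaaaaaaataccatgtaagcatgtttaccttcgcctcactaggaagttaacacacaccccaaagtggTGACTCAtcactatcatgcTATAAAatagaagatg
Mmp12 chr9:7347124-7347373: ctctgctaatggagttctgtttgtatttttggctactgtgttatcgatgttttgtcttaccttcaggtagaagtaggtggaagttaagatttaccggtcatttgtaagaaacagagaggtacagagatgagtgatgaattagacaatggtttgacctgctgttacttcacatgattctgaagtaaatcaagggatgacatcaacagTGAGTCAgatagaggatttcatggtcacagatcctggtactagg
Mmp8 chr9:7558179-7558428: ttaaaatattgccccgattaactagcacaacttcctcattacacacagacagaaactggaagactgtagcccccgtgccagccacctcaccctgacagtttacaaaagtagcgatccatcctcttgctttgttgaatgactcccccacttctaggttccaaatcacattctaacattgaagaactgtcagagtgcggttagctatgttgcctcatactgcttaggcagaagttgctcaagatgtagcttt
Adam19 chr11:46055734-46055983: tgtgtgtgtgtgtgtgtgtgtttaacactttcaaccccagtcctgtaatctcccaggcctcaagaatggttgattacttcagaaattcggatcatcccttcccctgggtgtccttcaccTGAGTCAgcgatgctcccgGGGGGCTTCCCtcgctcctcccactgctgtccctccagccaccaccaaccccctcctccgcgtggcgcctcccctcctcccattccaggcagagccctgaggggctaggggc
In the Mmp13 window the capitals mark, from left to right, an AP-1 match beginning 35 bases before the start and a TATA box 16 bases before it. Mmp12 has an AP-1 match 44 bases before this start, and the window at its other annotated start has an NF-kB match and no AP-1 match. In the Mmp8 window none of the 3 motifs was found. Adam19 has an AP-1 match 131 bases before this start and 2 overlapping NF-kB matches, which begin 112 and 111 bases before it, and its other 2 annotated starts have none. Of 32851 windows of this length in the table, 6.75% hold the AP-1 motif, 7.25% the NF-kB consensus and 12.4% the TATA box. Among the 18 genes that were past 2-fold in any comparison, 13 have an entry, with 17 windows. Of these 17 windows, 3 held the AP-1 motif, 2 the NF-kB consensus and 1 the TATA box. No windows but those of Adam19, Mmp12 and Mmp13 held a match. For Mmp12 and Adam19 only the window with the AP-1 match is printed above. A match describes letters in a window and shows no binding.

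The cell surface activator Mmp14 and its partners also differed. Mmp14 encodes a membrane-bound MMP that cuts collagen at the cell edge and, with TIMP2 as a bridge, activates the gelatinase encoded by Mmp2. Its log2 signal was 9.98 in PDL2-positive cells, 12.97 in LPS-treated and 11.63 in untreated PDL2-negative cells. The arrays ran in the same order as for Mmp13, with a narrower range: Mmp14 was 2.54-fold higher after LPS and 3.13-fold lower in PDL2-positive than in untreated PDL2-negative cells. All 3 of its probe sets were past 2-fold in both comparisons, with log2 differences of 1.34 to 1.83 after LPS and of -1.65 to -1.24 between the untreated populations. Mmp2 had 5.97, 7.30 and 6.99 in PDL2-positive, LPS-treated and untreated PDL2-negative cells and was 2.02-fold lower in PDL2-positive than in untreated PDL2-negative cells. Its other probe set gave -0.99 or lower, with the PDL2-positive array below the floor. Mmp9, the other gelatinase gene, was just above the floor on all arrays, at 5.90, 5.97 and 5.89 in the same order. Its probe set held the same deposited number on every array, so these differences arose in the normalization used here. The other probe set of Mmp9 was below the floor on all arrays, at 4.88, 4.74 and 4.96. Mmp24, another membrane-bound MMP, ran from 6.25 to 6.39, again from the same deposited number on every array. Its other probe sets were below the floor.

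Mmp19 and Mmp23 went opposite ways. Mmp19, a secreted MMP that cuts basement membrane proteins, had 5.82 in PDL2-positive cells, 7.86 in LPS-treated and 8.04 in untreated PDL2-negative cells. Both of its probe sets were lower in PDL2-positive than in untreated PDL2-negative cells, with log2 differences of -2.22 and, from an array below the floor, -2.71 or lower, and the brighter set was 4.64-fold lower. With the floor at the 75th percentile, its difference was -0.23, short of 2-fold. Mmp23 encodes an unusual membrane MMP that lacks the hemopexin domain of most of the family. Its signal was 9.21 in PDL2-positive cells against 6.10 in LPS-treated and 5.73 in untreated PDL2-negative cells, where it lay just above the floor. It was the only MMP on the higher side in PDL2-positive cells, 11.2-fold above untreated PDL2-negative and 8.67-fold above LPS-treated cells. The second probe set of Mmp23 gave log2 differences of 2.37 and 2.21 in these comparisons.

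**Figure D3:**
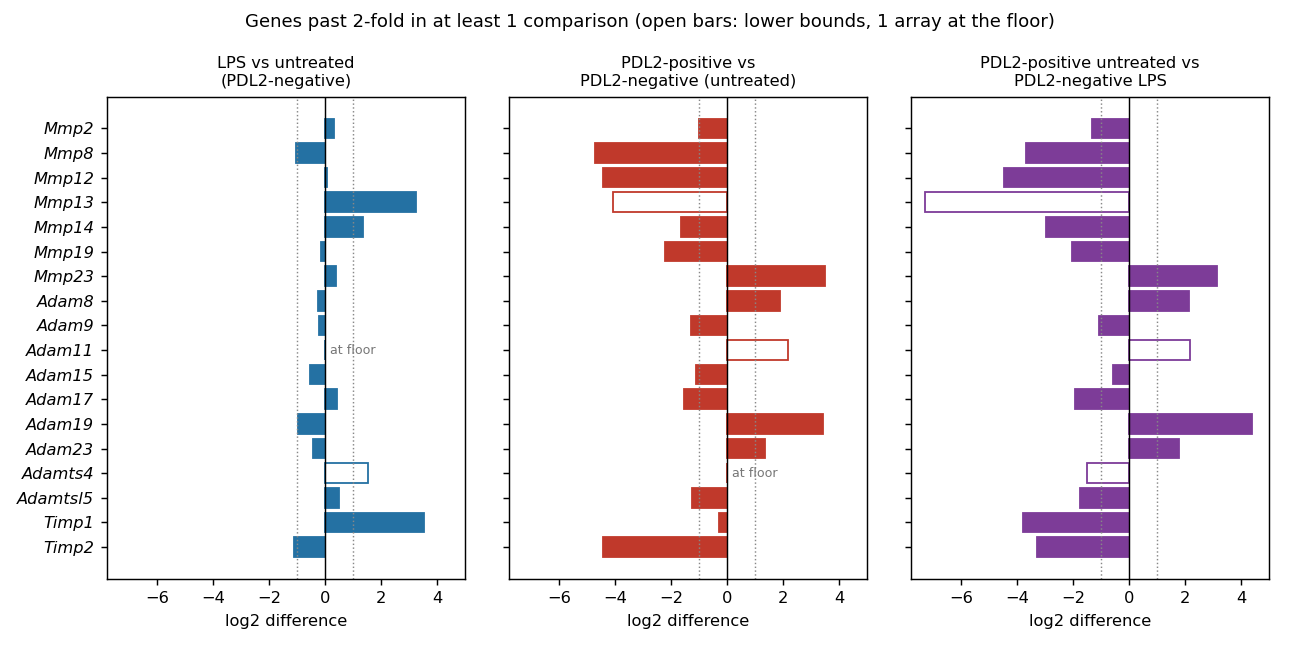
Log2 difference (horizontal axes) in the 3 comparisons for the 18 genes past 2-fold in at least 1 of them. Dotted lines mark 2-fold, open bars are lower bounds because 1 array was at the floor, and "at floor" marks genes at the floor on both arrays. The LPS panel has its longest bars for Timp1 (3.52) and Mmp13 (3.24), and the PDL2 panel for Mmp8 (-4.74), Mmp12 (-4.44) and Timp2 (-4.43).

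The inhibitors were measured at both ends of the range. Timp1, an inducible inhibitor of secreted MMPs, had a log2 signal of 6.60 in PDL2-positive cells, 10.41 in LPS-treated and 6.89 in untreated PDL2-negative cells. The LPS array stood apart from the other two. Timp1 was 11.5-fold higher after LPS and 14.0-fold lower in PDL2-positive than in LPS-treated cells, and the untreated populations differed by -0.29. Timp2, which inhibits MMPs and takes part in activation of the Mmp2 product, had 7.30, 10.60 and 11.73 in PDL2-positive, LPS-treated and untreated PDL2-negative cells. It was 21.6-fold lower in PDL2-positive than in untreated PDL2-negative cells and 2.19-fold lower after LPS. Timp1 and Timp2 thus lay on opposite sides after LPS. Of 6 probe sets of Timp2, 5 were above the floor, and all 5 were lower in PDL2-positive than in untreated PDL2-negative cells, with log2 differences of -4.71 to -1.64. After LPS 4 of the 5 were lower, the lowest at -2.74, and the other gave -0.78, short of 2-fold. Timp1 has 1 probe set. Timp3, which binds the matrix and also inhibits ADAM17, held 5.77, 6.00 and 5.91 in PDL2-positive, LPS-treated and untreated PDL2-negative cells. Timp4 was below the floor on all arrays, at 5.00 on each.

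The ADAMs lower in PDL2-positive cells were Adam17, Adam9 and Adam15. Adam17 encodes the enzyme that releases TNF. Its log2 signal was 9.50 in PDL2-positive cells, 11.45 in LPS-treated and 11.03 in untreated PDL2-negative cells. It was 2.89-fold lower in PDL2-positive than in untreated PDL2-negative cells and 3.87-fold lower than in LPS-treated cells, and LPS itself gave a difference of 0.42. The 3 probe sets of Adam17 were all past 2-fold between the untreated populations, the brightest at -1.53 and the lowest at -1.67, and gave 0.42 to 0.68 after LPS. Adam9, which can shed the growth factor HB-EGF, had 9.58, 10.68 and 10.90 in PDL2-positive, LPS-treated and untreated PDL2-negative cells and was 2.49-fold lower in PDL2-positive than in untreated PDL2-negative cells. For Adam15, a membrane protease known to cut E-cadherin, the signals were 8.61, 9.19 and 9.73, a 2.17-fold lower level in that comparison. Of its 4 probe sets 3 were lower by 2-fold, and the other gave -0.12. Adam10, the sheddase that starts cleavage of Notch receptors, did not differ by 2-fold in any comparison: it had 10.58 in PDL2-positive cells, 9.92 in LPS-treated and 10.74 in untreated PDL2-negative cells.

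The ADAMs higher in PDL2-positive cells were Adam19, Adam8, Adam23 and Adam11. Adam19, or meltrin beta, which can process neuregulin, had a log2 signal of 11.49 in PDL2-positive cells against 7.11 in LPS-treated and 8.08 in untreated PDL2-negative cells. It was 10.7-fold higher in PDL2-positive than in untreated PDL2-negative cells and 20.9-fold higher than in LPS-treated cells. Both probe sets of Adam19 were higher, by 3.42 and 3.74 between the untreated populations. After LPS it differed by -0.97, just short of 2-fold. Adam8, a sheddase of leukocytes, had 12.74, 10.60 and 10.86 in PDL2-positive, LPS-treated and untreated PDL2-negative cells, and was 3.66-fold higher in PDL2-positive than in untreated PDL2-negative cells. It has 1 probe set.

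Adam23 and Adam11 belong with Adam22 to the ADAMs that lack protease activity and are known as receptors and binding partners in the nervous system. Adam23 had 9.95 in PDL2-positive cells, 8.18 in LPS-treated and 8.61 in untreated PDL2-negative cells, 2.52-fold higher in PDL2-positive than in untreated PDL2-negative cells. Its second probe set gave 1.94 there and -1.77 or lower after LPS, with the LPS array below the floor, where the brighter set gave -0.43. Adam11 was above the floor on the PDL2-positive array alone, at 7.75 against 5.14 in LPS-treated and 5.08 in untreated PDL2-negative cells, at least 4.52-fold higher than in either. The second set of Adam11 gave at least 0.52, short of 2-fold. Adam22 held 5.90, 5.20 and 6.40 in PDL2-positive, LPS-treated and untreated PDL2-negative cells. Its difference after LPS was -0.82 or lower, a bound short of 2-fold, and it was -1.20 with no floor.

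**Figure D4:**
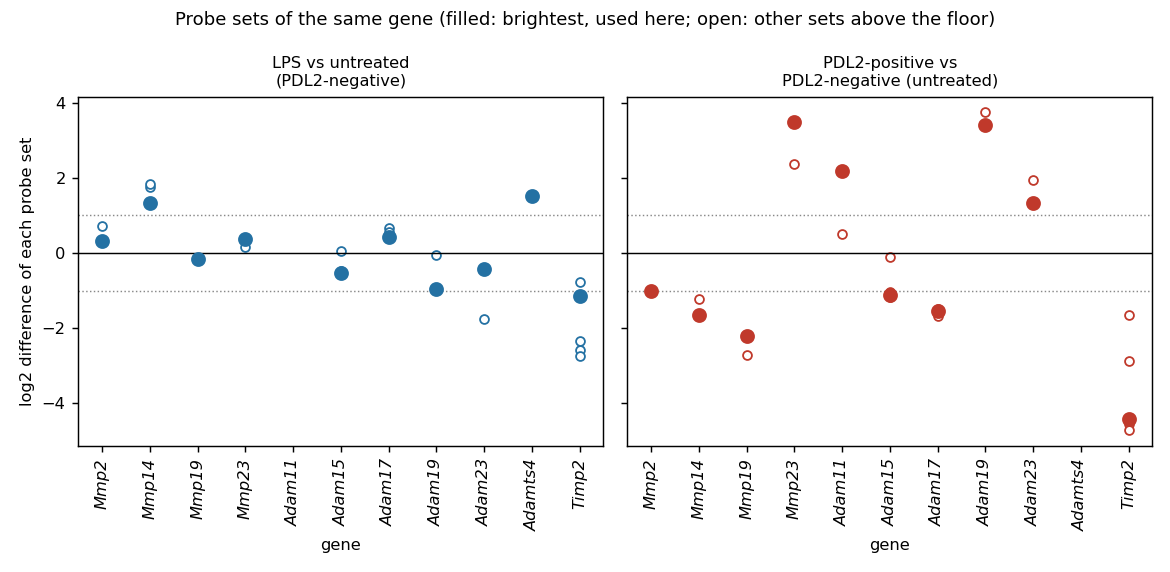
Log2 difference (vertical axis) of every probe set above the floor on 1 of the arrays compared, for genes past 2-fold that have several sets; filled points are the sets used here and open points the others. Points of a gene lie on the same side of 0 except for Adam15 after LPS, and those of Timp2 spread most, from -4.71 to -1.64 in the PDL2 comparison.

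The ADAMTS families showed few differences. Adamts4, an aggrecanase that also cuts versican, was above the floor after LPS alone, with 4.99 in PDL2-positive cells, 7.09 in LPS-treated and 5.02 in untreated PDL2-negative cells. It was at least 2.85-fold higher after LPS, and its second probe set was below the floor on all arrays. Adamtsl5, an ADAMTS-like protein of elastic microfibrils without protease activity, had 6.17, 7.92 and 7.45 and was 2.42-fold lower in PDL2-positive than in untreated PDL2-negative cells. Adamts7 was above the floor in PDL2-positive cells alone (6.48) and gave at least 0.90 against the floor, a bound short of 2-fold. With no floor its log2 differences were 1.85 from untreated PDL2-negative and 1.49 from LPS-treated cells.

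No call was made for the remaining 15 genes above the floor. For Adamts7 and Adam22 some differences are bounds, which leave their size unknown, and the others stayed within 2-fold in every comparison. Of the 15, Adam10, Adamtsl2, Adamts10, Adam4 and Mmp24 had the highest mean signals, from 10.41 for Adam10 to 6.31 for Mmp24. Adam4 had 6.98, 7.32 and 6.68 in PDL2-positive, LPS-treated and untreated PDL2-negative cells. The genes just inside the floor were Mmp7, Adam21 and Mmp9, with highest signals of 5.90, 5.93 and 5.97, and those just outside were Mmp17, Adamts9 and Adam1b, with 5.35, 5.29 and 5.26. The 37 genes below the floor were 8 MMPs, 16 ADAMs, 10 ADAMTS proteases, 2 ADAMTS-like proteins and Timp4. Of the 123 probe sets of the 70 genes, 28 held the same deposited number on every array. Among them were the sets used for Mmp24, Adamtsl4, Mmp9 and Adam21, which count as above the floor. The small differences of these genes between arrays arose in the normalization and measure no change. A gene below the floor is not shown to be absent, only not measured above the typical signal of the array.

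Genes that act with these proteases were followed in lists, also chosen with earlier results of these data known. Rhbdf2 encodes iRhom2, which carries ADAM17 to the cell surface in myeloid cells. It had 8.29 in PDL2-positive cells, 10.82 in LPS-treated and 8.66 in untreated PDL2-negative cells, higher by 2.16 after LPS on the log2 scale. The other ADAM17 partners, Rhbdf1 and Frmd8, stayed within 2-fold in all comparisons. Of the convertases that remove the prodomain, Furin and Pcsk7 were above the floor; Pcsk7 was higher by 1.01 after LPS and Furin by 0.66, and both were within 2-fold between the untreated populations. Of 5 tetraspanins above the floor that bind ADAM10, 3 were lower after LPS, beside 13.8% of all genes. Among them was Tspan14 with -2.19 on the log2 scale. In PDL2-positive against untreated PDL2-negative cells 2 of the 5 were lower, Tspan14 and Tspan5, and Tspan33 was higher by 2.25. Of all genes 13% were lower and 10.1% higher in that comparison.

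In plasminogen activation, a protease system that can activate MMP precursors, the genes on the higher side after LPS were Serpinb2, an inhibitor of plasminogen activators (11.92 after LPS against 6.08 untreated), and Plat, the tissue activator (9.88 against 4.91, below the floor). Those were 2 of 4 genes above the floor, and none was lower, beside 9.17% of all genes higher and 13.8% lower. Plaur, the urokinase receptor, was lower in PDL2-positive cells, with 6.76 there, 11.18 after LPS and 11.66 in untreated PDL2-negative cells. Among the inhibitors, clearance receptors and inducers, Lrp1, the endocytic receptor that clears MMPs and TIMPs, had 6.99, 9.74 and 11.02 in PDL2-positive, LPS-treated and untreated PDL2-negative cells. Reck, a membrane-anchored MMP inhibitor, was above the floor in PDL2-positive cells alone, at 6.82 against 3.93 and 3.89. In that list 1 gene was higher and 1 lower of 5 between the untreated populations, beside 10.1% and 13% of all genes. After LPS it was 1 and 1 of 4, beside 9.17% and 13.8%, with Sdc1 higher by 1.62. Counts of 1 show no trend of the list.

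Known shed substrates of ADAM10 and ADAM17 had 4 of 17 genes higher and 8 lower in PDL2-positive than in untreated PDL2-negative cells (median -0.72), and 7 of 20 higher and 2 lower after LPS (median 0.58). The share of all genes past 2-fold is given above. Tnf had 6.41 in PDL2-positive cells, 12.48 in LPS-treated and 8.11 in untreated PDL2-negative cells, so that it and Adam17 were lowest on the same array. The chemokine Cx3cl1, which is made as a membrane protein, had 10.42, 7.91 and 5.85 in that order, highest in PDL2-positive cells. The epidermal growth factor receptor ligand Ereg was above the floor after LPS alone, at 8.36. Notch1, an ADAM10 substrate, had 6.14 in PDL2-positive, 10.36 in LPS-treated and 9.95 in untreated PDL2-negative cells. Csf1r and Mertk of this list are also in the macrophage list.

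**Figure D5:**
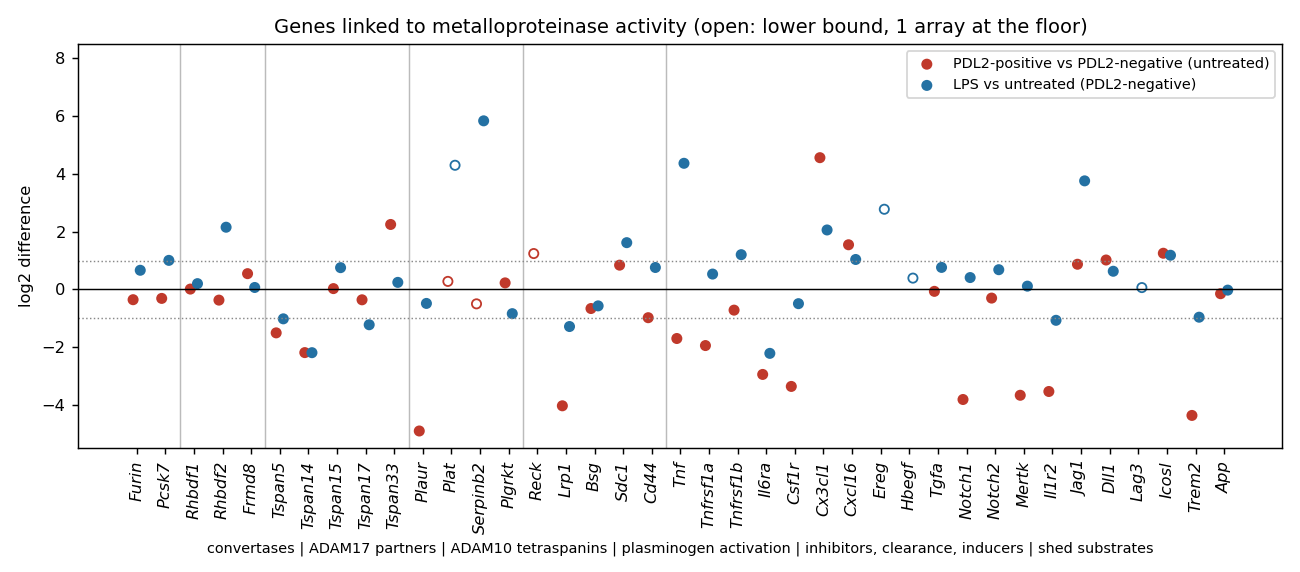
Log2 difference (vertical axis) of genes linked to metalloproteinase activity, in PDL2-positive against untreated PDL2-negative cells and after LPS in PDL2-negative cells; dotted lines mark 2-fold and open points are lower bounds. Plaur (-4.90), Trem2 (-4.36) and Lrp1 (-4.03) lie lowest in the PDL2 comparison, and Serpinb2 (5.84) and Tnf (4.37) highest after LPS.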

How the data were processed

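RNA from 3 mouse DC samples, 1 per group, was hybridized to arrays with a biotin label, per the labels. The deposited values are log2 summaries made by the authors, 1 per probe set and array, from 3.19 to 14.82 over the sets analysed; the background correction, normalization and genome build are not given in the sources used here. Of 38546 probe sets, 13 controls were left out. The quartiles of the arrays differed by up to 0.22, above the limit of 0.1, so 38533 probe sets were quantile-normalized. Probe sets naming 1 gene (33974, of which 33787 were matched by Entrez number to a RefSeq gene table) gave 17886 genes, each read by its brightest set; 449 sets naming several genes were not used and 4110 have no name in the annotation. Values below the median, 5.58, were raised to it for differences, and a gene entered a comparison if above it on 1 of the 2 arrays. Calls used 2-fold. Alternatives changed the normalization, the floor, the choice of probe set and the fold. Every gene past 2-fold was named, and of the rest the 5 of highest mean and all TIMPs. The only error measure is technical: the robust SD of a probe set's log2 difference, from the 2 brightest sets of a gene, was 0.29 over 4212 genes for LPS, 0.21 over 4243 for PDL2 and 0.31 over 4121 for PDL2-positive against LPS-treated cells. The genes and lists were chosen with earlier results of these data known. The method was tested on simulated arrays with known changes in bright genes only, where all probe sets of a gene changed together. That test does not cover genes near the floor or probe sets that disagree. Python 3.11.15, numpy 2.4.6 and pandas 2.3.3 were used, and promoter sequences are from RefSeq.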

Additional observations from a re-analysis of the deposited data

How the results depend on the processing

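There were 9 alternatives. The 18 genes past 2-fold gave 39 calls over the 3 comparisons. All 39 kept their direction and stayed past 2-fold with no further normalization, with median centring and with no floor. With no floor 3 calls were added: Adamts7 was higher in PDL2-positive than in untreated PDL2-negative (1.85) and LPS-treated cells (1.49), and Adam22 was lower after LPS (-1.20). The direction also held, wherever a value was left, with the floor at the 75th percentile (29 of 32 past 2-fold, those lost being Mmp19 in PDL2-positive against untreated PDL2-negative cells, at -0.23, and Mmp19 and Adamtsl5 against LPS-treated cells, at -0.06 and -0.12), the mean over probe sets (36 of 39), the second-brightest set (33 of 37) and sets without an ending that marks shared transcripts (38 of 39). The second-brightest set lost Adam11 in both comparisons (a bound of 0.52). It also lost Adam15 (-0.12) and Mmp2 (a bound of -0.99) between the untreated populations. Without such endings the Mmp2 call was lost there. The Adam15 set used has such an ending, and the set without it gave -1.03 there. With the higher floor fewer genes were compared. The median differences were then -0.22 after LPS over 15 genes and -1.22 between the untreated populations over 14. For PDL2-positive against LPS-treated cells the median was -0.84 over 16. The medians of all genes at this floor were -0.09, 0.01 and 0.06 in the same order. At 1.5-fold 5 of 31 genes were lower after LPS, beside 2708 of all 11000. At 3-fold 2 were higher and 0 lower after LPS, beside 581 and 646 of 11000, and 6 of 32 were lower in PDL2-positive than in untreated PDL2-negative cells, beside 803 of 10926. With no further normalization the median of all genes after LPS was -0.09, against 0.02, and 3 genes of the set were lower, Adam19 being the addition (-1.19), as it was with median centring (-1.17). No paired analysis was possible because each group has 1 array. Genes near the floor, such as Mmp7, Mmp9 and Timp3, cannot show a lower level, and Mmp8, Mmp12, Mmp13, Adam8, Adam9, Adamtsl5 and Timp1 rest on 1 probe set each.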

Other observations

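Of 11 measured genes for matrix proteins that MMPs and ADAMTS proteases cut, 6 were above the floor and the rest were not compared. Eln, Col4a1, Col1a2 and Lamc1 stayed within 2-fold. They had 5.64, 5.85, 6.36 and 6.51 in untreated PDL2-negative cells, too near the floor of 5.58 to show a 2-fold lower level. Vcan, the proteoglycan versican, was lower in PDL2-positive cells, with a log2 signal of 6.65 there, 10.76 in LPS-treated and 10.06 in untreated PDL2-negative cells; it is also in the monocyte list. Fn1, fibronectin, had 9.81, 9.80 and 10.86 in the same order, lower by just over 2-fold both in PDL2-positive cells and after LPS. Of 6 genes of this list above the floor, 2 were lower between the untreated populations and 1 after LPS, with none higher. Of all genes 13% and 13.8% were lower in these comparisons.

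Most of the other zinc peptidases above the floor stayed within 2-fold in each comparison. Anpep, the surface aminopeptidase known as CD13, had 8.02 in PDL2-positive cells, 10.93 in LPS-treated and 11.24 in untreated PDL2-negative cells. Ece1, the endothelin-converting enzyme, had 9.06, 8.58 and 7.34, higher by 1.72 in PDL2-positive than in untreated PDL2-negative cells and by 1.24 after LPS. Of 6 genes above the floor 1 was higher and 1 lower in each of these comparisons. The lower gene was Anpep between the untreated populations and Ide after LPS. Ide had 8.61 after LPS against 9.74 in untreated PDL2-negative cells, while Anpep stayed within 2-fold after LPS. Of all genes 10.1% were higher and 13% lower between the untreated populations, and 9.17% and 13.8% after LPS. Counts of 1 show no trend of the list.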
